A study of Mus musculus with 4 samples.

Results

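The 10 genes described here encode signals by which skin epithelium speaks to immune cells: the chemokines Cxcl1, Cxcl2, Cxcl10, Cxcl14 and Ccl2, the macrophage growth factors Il34 and Csf1, the cytokine Tnf, the prostaglandin-making enzyme Ptgs2 and the adhesion molecule Icam1. They were taken by symbol from the 56980 genes listed for the libraries, and each symbol was found. The libraries held Epcam and α6 integrin double-positive basal cells sorted from the dorsal skin epidermis of mouse embryos, labelled E16.5, and were read by droplet-based single-cell RNA-seq. A list of litters that came with the study places the litter of this experiment 1 day earlier, and the age is therefore uncertain by that day. There were 2 control libraries (Ctrl) and 2 triple knockout libraries (TKO), 1 embryo each. All embryos were Suv39h2-/- with Suv39h1 f/f and also Setdb1 f/f, and were K14CreERT2- in Ctrl and K14CreERT2+ in TKO. Tamoxifen was given to both groups, and both lacked Suv39h2, so the comparison is of embryos with and without induced loss of Suv39h1 and Setdb1, 2 enzymes that place H3K9me3 on chromatin. The Cre is driven by the keratin 14 promoter and therefore acts in keratinocytes rather than in immune cells, and recombination in TKO skin was mosaic. In the summed keratinocytes the level of Setdb1 was 67.6 and 58.3 UMIs scaled to a total of 1e6 (CPM) in Ctrl and 39.4 and 42.4 CPM in TKO, a log2 difference of -0.64 ± 0.13 (SE, adjusted p = 0.0452, edgeR quasi-likelihood test). Suv39h1 was at 24.4 and 25.4 CPM in Ctrl and 24.8 and 20.01 CPM in TKO, groups that overlapped (-0.17 ± 0.13 SE, adjusted p = 0.47, edgeR). The reads come from the 3′ end of a transcript and need not report a deleted exon.

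Keratinocytes form the barrier of the skin and also act as sentinels. They release chemokines that guide leukocytes into the epidermis, and many of the genes named here are switched on within minutes to hours of stress through NF-κB and AP-1 factors. Cxcl1 and Cxcl2 attract neutrophils through Cxcr2, Cxcl10 is an interferon-inducible ligand of Cxcr3, Ccl2 attracts monocytes through Ccr2, and Cxcl14 is made by resting epidermis. Il34 and Csf1 are the ligands of Csf1r, the receptor on which macrophages and Langerhans cells depend, and Il34 from keratinocytes maintains Langerhans cells.

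Cxcl1 and Cxcl2 lie side by side on chromosome 5, at 91039094 to 91040974 and 91051730 to 91053797 on the plus strand of GRCm39, 10755 bases apart, and Cxcl10 lies on the minus strand of the same chromosome at 92494497 to 92496748. The other genes are scattered over chromosomes 13 (Cxcl14), 11 (Ccl2), 8 (Il34), 3 (Csf1), 17 (Tnf), 1 (Ptgs2) and 9 (Icam1). RefSeq promoter windows, from 250 bases before to 50 bases after the start site, were matched for 8 of the 10 genes (build GRCm38.p6), Ccl2 and Il34 being the others. A core spelling of the NF-κB motif, GGNNTTTCC on either strand, was found in the windows of Cxcl1, Cxcl2, Cxcl10, Csf1 and Icam1, 5 of 8, and in 5.82% of all 32851 windows. The spelling GGAATTTCC, which overlaps it, was found in 4 of 8 (Cxcl1, Cxcl2, Cxcl10 and Icam1) and in 0.317% of all windows, whereas the AP-1 letters TGANTCA were found only in that of Cxcl10 (7.81% of all windows) and TATAAA in those of Tnf and Icam1 (13.6%). In GENCODE the Icam1 gene starts further upstream, so its matches lie in the first exon of that annotation. These letters were chosen with the sequences in view, and a match is not a measured binding site. The stretches from 170 to 51 bases before the RefSeq start sites of Cxcl1, Cxcl2 and Cxcl10 are shown because these genes of chromosome 5 hold the GGAATTTCC spelling and lay in part in the same keratinocyte clusters, as described below. Each was found once on chromosome 5 of GRCm39, at chr5:91038934-91039053 (plus strand), chr5:91051588-91051707 (plus strand) and chr5:92496799-92496918 (minus strand, where introns of the opposite-strand gene Art3 also lie), and is written 5′ to 3′ along the gene with matches of the core in capitals.
Cxcl1: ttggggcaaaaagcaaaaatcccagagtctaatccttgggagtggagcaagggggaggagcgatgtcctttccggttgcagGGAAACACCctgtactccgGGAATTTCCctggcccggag
Cxcl2: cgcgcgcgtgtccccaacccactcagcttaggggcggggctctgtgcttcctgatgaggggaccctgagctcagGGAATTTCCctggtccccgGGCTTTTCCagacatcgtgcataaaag
Cxcl10: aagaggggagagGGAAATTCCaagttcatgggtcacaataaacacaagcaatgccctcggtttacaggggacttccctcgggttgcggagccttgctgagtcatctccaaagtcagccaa

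Of 19789 barcodes, 10764 passed the filters, 9190 of them keratinocytes and 691 immune-like cells, a class named from its markers. Library totals ran from 70749496 to 89655247 UMIs, and 39 barcodes occurred in 2 libraries. TKO keratinocytes held more UMIs, with a median of 30073 and 28052 UMIs per cell against 21960 and 17333 in Ctrl, and shares of cells with a UMI are therefore given after every cell was thinned to 5000 UMIs. Keratinocytes were split without use of the 10 genes and of the genes called between genotypes in a first fit on all keratinocytes. This gave basal-like, differentiating-like and hair follicle-like cells and a small Merkel-like class of 31, 21, 15 and 10 cells in Ctrl 1, Ctrl 2, TKO 1 and TKO 2, too few for a test. Before this split, a keratinocyte cluster was made up mostly of TKO cells (38, 38, 254 and 191 cells in that order). The classes can therefore pool altered TKO cells with others. Replicates are separate embryos, 2 per genotype, and an exact permutation test on 4 libraries cannot go below p = 0.33. Intervals on shares are exact binomial and cover counting error only.

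The cells that held each transcript differed from gene to gene. Il34 UMIs lay mainly in differentiating-like keratinocytes, which held 84.7% and 71.2% of them in Ctrl and 49.3% and 77.0% in TKO. Keratinocytes held 98.2% to 99.6% of the UMIs of Cxcl14 and 92.3% to 98.9% of those of Icam1 in every library. At the other end, Ccl2 came from immune-like cells, which held 80.7%, 85.2%, 79.8% and 63.7% of its UMIs in that order of libraries, which is used for all sets of 4 values below, while all keratinocytes together held 0.621% to 1.51%. Cxcl2 was divided, with 50%, 58.3%, 29.6% and 8.07% of its UMIs in keratinocytes and 44.9%, 37.6%, 57.9% and 64.2% in immune-like cells. The keratinocyte part of Ptgs2 was 79.4% and 86.6% in Ctrl against 39.9% and 26.6% in TKO, and that of Cxcl10 was 97.9% in each Ctrl library against 89.5% and 72.2%. For these genes a TKO library therefore held more of its transcripts outside keratinocytes than a Ctrl library did.

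**Figure D1:**
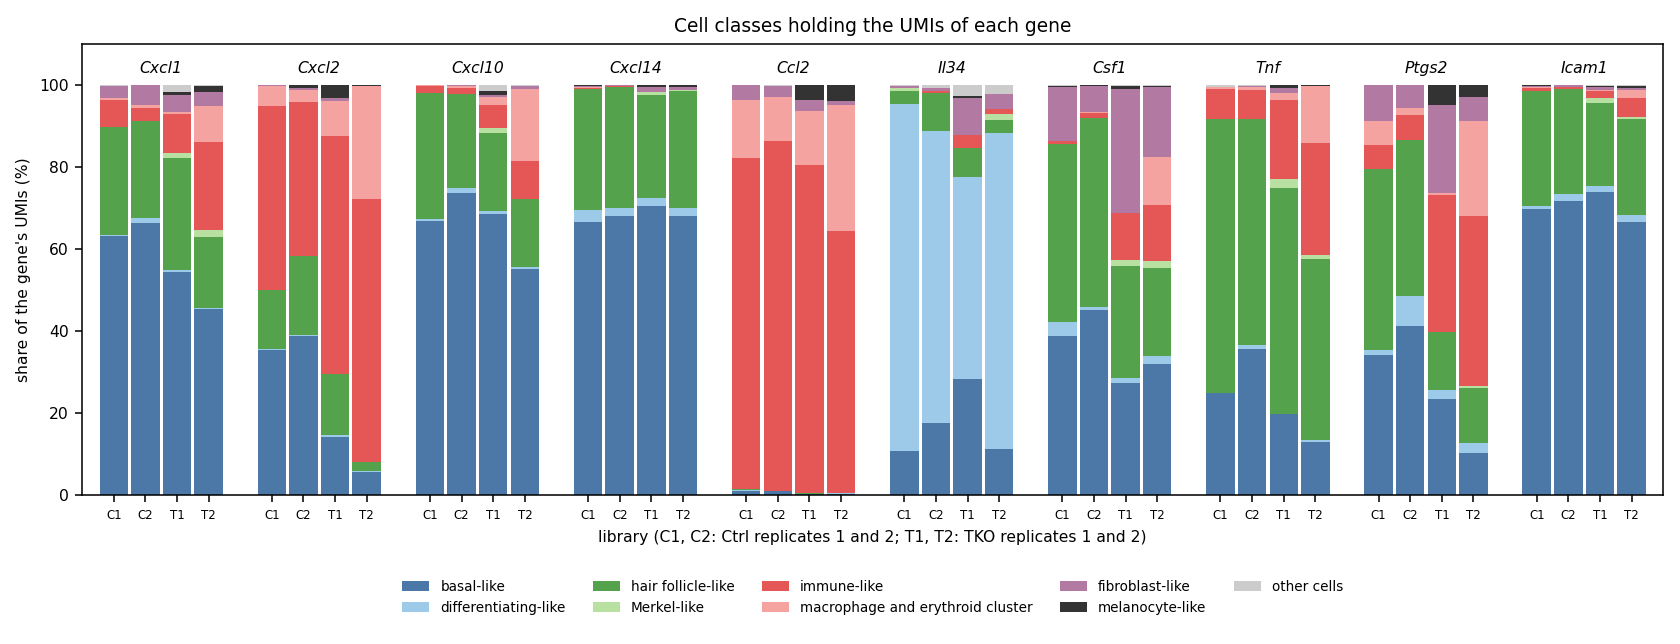
Percent of each gene's UMIs in each class of cells (colours of the stacked bars) for each of the 4 libraries. Ccl2 lay mostly in immune-like cells in every library, Il34 in differentiating-like keratinocytes in 3 of 4 libraries (49.3% in TKO 1), and the immune-like part of Cxcl2, Tnf, Ptgs2 and Csf1 was larger in both TKO libraries than in both Ctrl libraries.

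Cxcl1, which draws neutrophils, was read in keratinocytes at 13.6, 49.3, 41.4 and 22.0 CPM (927, 2824, 2175 and 1194 UMIs). The higher and the lower library of each genotype were further apart than the genotypes, and the log2 difference was 0.00 ± 0.60 (SE). Its neighbour Cxcl2 followed the same order of libraries at 4.41, 15.5, 12.5 and 4.89 CPM, and so did Icam1, the endothelial and epithelial ligand of leukocyte integrins, at 59.8, 161, 113 and 76.3 CPM. For all 3 genes both TKO libraries lay between the Ctrl libraries. Ctrl 2 was also the highest library for Cxcl10, at 24.9, 101, 41.5 and 27.8 CPM (1697, 5764, 2177 and 1508 UMIs), with TKO again inside the Ctrl range.

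In basal-like cells these inducible genes had the same order, with Cxcl10 at 33.8, 136, 51.7 and 41.0 CPM and Icam1 at 84.2, 210, 141 and 106 CPM. Differentiating-like cells held little of either, 0.321 to 6.77 CPM of Cxcl10 and 2.08 to 15.0 CPM of Icam1. In hair follicle-like cells Cxcl1 reached 18.4, 49.3, 59.7 and 24.1 CPM, and there TKO 1 was the highest library. UMIs from 3′ ends count molecules and were not scaled by transcript length.

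Cxcl14 was the most abundant of the 10 genes in keratinocytes, at 882, 1073, 1010.0 and 666 CPM, and the genotypes overlapped there. In basal-like cells it stood at 1180.3, 1315, 1178 and 885 CPM and in hair follicle-like cells at 1211, 1224, 1132 and 781 CPM, against 63.4 to 143 CPM in differentiating-like cells. In the basal-like and hair follicle-like classes both TKO values lay below both Ctrl values, by a margin of only 1180.3 against 1178 CPM in basal-like cells. After thinning, a Cxcl14 UMI was found in 75.4%, 86.4%, 82.1% and 73.9% of keratinocytes.

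Il34 in keratinocytes stood at 15.2, 10.2, 3.47 and 10.1 CPM (1036, 582, 182 and 545 UMIs). Both TKO values lay below both Ctrl values, but those of Ctrl 2 and TKO 2 were nearly equal and TKO 1 stood apart as the lowest. Differentiating-like cells were 652, 439, 202 and 364 of 2845, 2989, 1565 and 1791 keratinocytes, so the keratinocyte values mix level with class share. In differentiating-like cells, where the gene was highest in all 4 libraries, the values were 47.3, 41.5, 13.7 and 36.1 CPM, a log2 difference of -0.90 ± 0.44 (SE, adjusted p = 0.401). The groups overlapped within some clusters of this class, as in that of 591 cells led by Mgst1, where TKO 2 was the highest library (34.5, 36.0, 14.8 and 53.4 CPM). After thinning, 20.7%, 17.4%, 2.97% and 13.2% of differentiating-like cells held an Il34 UMI, and 0.649% to 1.67% of hair follicle-like cells did. Over the whole class the groups did not overlap on either scale, and without TKO 2 the difference passed the test in keratinocytes and in differentiating-like cells (log2 -1.90 and -1.86).

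Csf1, the other Csf1r ligand, was at 6.01, 18.4, 11.1 and 9.19 CPM in keratinocytes and, among their 3 larger classes, highest in hair follicle-like cells, at 14.1, 35.4, 23.1 and 14.1 CPM. There both TKO values lay within the Ctrl range, and in the hair follicle-like cluster led by Dkk4 and Fgf20 the values were 28.1, 78.9, 44.9 and 21.4 CPM. Fibroblast-like cells held more, at 38.5, 50.7, 80.9 and 70.6 CPM. In the few Merkel-like cells Csf1 UMIs numbered 0, 0, 14 and 15 (29.5 and 46.2 CPM in TKO), Tnf UMIs 0, 0, 13 and 6, Cxcl1 UMIs 0, 0, 31 and 31 and Icam1 UMIs 1, 0, 72 and 30. The keratin Krt14 of basal keratinocytes moved with them in these cells, at 507, 147, 4296 and 3827 CPM, and its part in these values was not tested. Krt5 likewise averaged 238 CPM in Ctrl and 3091 CPM in TKO. The paper found no Merkel cell cluster in TKO, so it is uncertain that the TKO cells of this class were Merkel cells.

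Tnf, a cytokine that activates NF-κB in its target cells, was likewise highest in hair follicle-like cells among the 3 larger classes, at 24.2, 38.4, 29.3 and 21.9 CPM in hair follicle-like cells (358, 571, 351 and 290 UMIs) against 3.88, 11.6, 3.90 and 3.06 CPM in basal-like cells. By the median over libraries, its highest clusters were that led by Dkk4 and Fgf20, at 25.4, 47.8, 53.3 and 27.9 CPM, and one that expressed Lhx2, at 28.5, 44.1, 37.6 and 24.2 CPM. At 5000 UMIs, 8.99%, 14.0%, 10.7% and 9.52% of hair follicle-like cells held a Tnf UMI. In differentiating-like cells the shares were 0, 0.463%, 0 and 0, where 0 of 651, 202 and 363 cells allow shares of up to 0.461%, 1.49% and 0.826%, taking 3 cells as the limit that a count of 0 allows. The shares of hair follicle-like cells were above those of differentiating-like cells in all 4 libraries.

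Ptgs2, which makes the precursor of prostaglandins, was scarce in keratinocytes, at 1.19, 3.96, 1.39 and 0.997 CPM. In hair follicle-like cells it was at 3.04, 6.73, 2.17 and 2.04 CPM, both TKO values below both Ctrl values (log2 -1.18 ± 0.41 SE, adjusted p = 0.104, edgeR). Ccl2 was near the floor in keratinocytes, with 6, 9, 15 and 23 UMIs (0.0879, 0.157, 0.286 and 0.425 CPM), and both TKO values lay above both Ctrl values. At 5000 UMIs, 0.0339% to 0.224% of keratinocytes held a Ccl2 UMI against 34.4% to 52.9% of immune-like cells. The summed level of 8 immune markers in the same keratinocytes moved with it, at 2.67, 2.65, 4.36 and 6.96 CPM with none of the 8 at 0, and the log2 difference of Ccl2 was 1.53 ± 0.51 (SE) in all keratinocytes and 1.74 in those with no immune marker UMI. Leaving out cells with an immune marker UMI cannot take out free immune-cell RNA, and its part in these few Ccl2 UMIs was not tested.

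**Figure D2:**
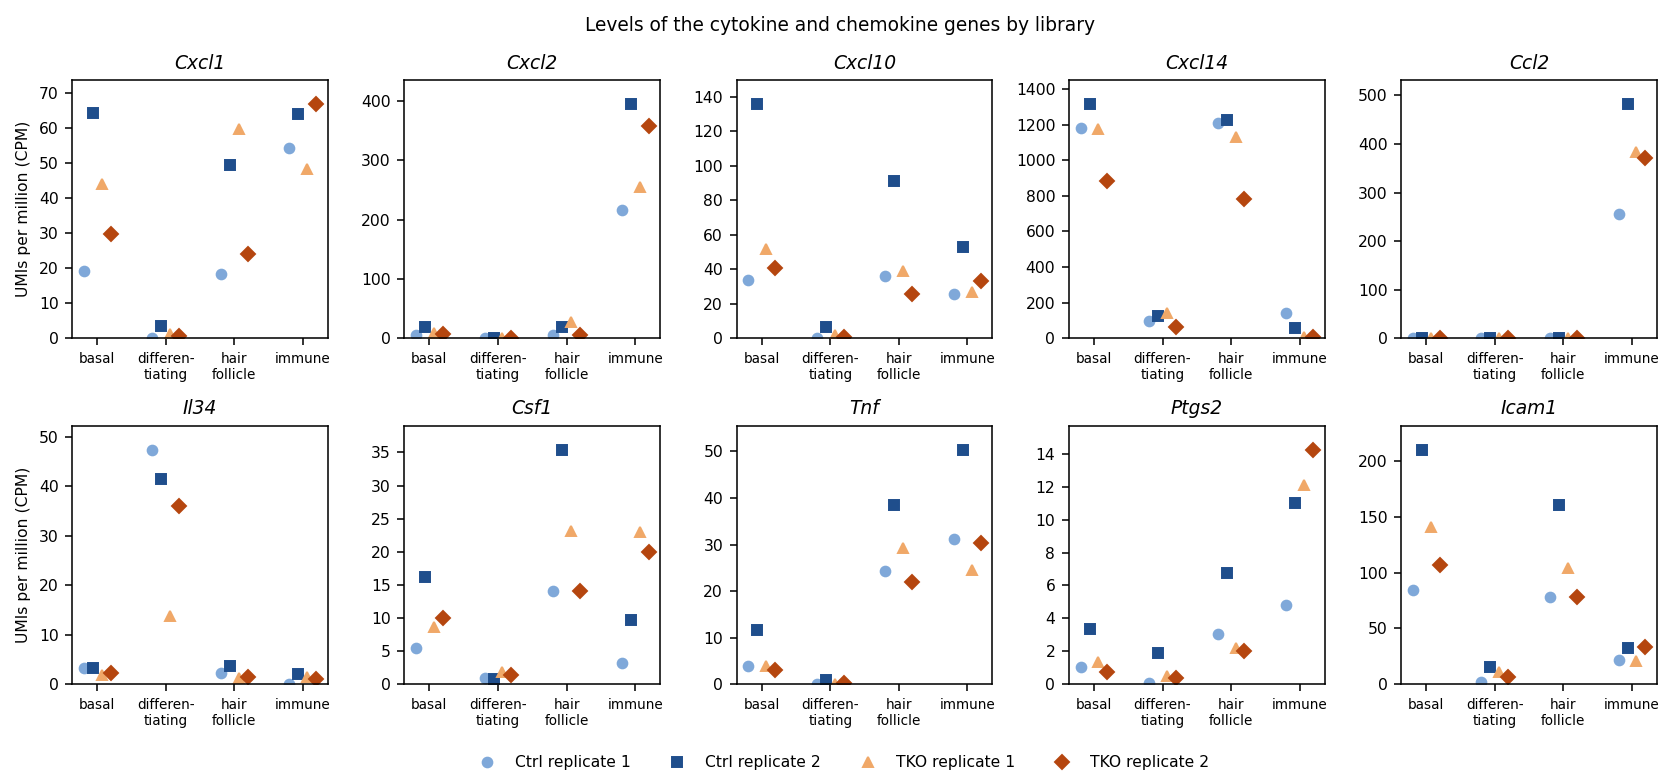
Level of each gene (UMIs per 1e6, CPM, linear axis from 0, scaled for each gene) in basal-like, differentiating-like, hair follicle-like and immune-like cells, 1 point per library. In basal-like cells Ctrl 2 was the highest point for Cxcl1, Cxcl2, Cxcl10 and Icam1, whereas the Il34 points of TKO lay below those of Ctrl in each of the 3 keratinocyte classes shown.

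None of the 10 genes passed the test of TKO against Ctrl in any class at an adjusted p of 0.05 over all genes tested (edgeR quasi-likelihood test on summed UMIs). In keratinocytes 0 of 10 were called while 7.01% of all 19926 genes were, with 1 of 10 under an unadjusted p of 0.05 (Ccl2, against 25.1% of all genes) and 0 of 10 by DESeq2. In basal-like cells 0 of 9 were called against 11.1% of genes (unadjusted 0 of 9 against 28.1%, 0 by DESeq2), and in differentiating-like cells 0 of 6 against 1.22% (unadjusted 0 of 6 against 15.9%, 0 by DESeq2). In hair follicle-like cells 0 of 9 were called against 14.9% of genes, with 3 of 9 under an unadjusted p of 0.05 (Cxcl10, Il34 and Ptgs2), close to the 30.3% of all genes, and 0 by DESeq2. The log2 differences of those 3 were -0.94 ± 0.40, -1.08 ± 0.39 and -1.18 ± 0.41 (SE), with adjusted p of 0.163, 0.108 and 0.104 by edgeR. The median over the tested genes of the set was -0.26 in keratinocytes, -0.58 in basal-like, -0.57 in differentiating-like and -0.35 in hair follicle-like cells, beside -0.02, -0.02, 0.01 and -0.01 over all genes tested. In basal-like cells all 9 values were negative, the lowest being Tnf at -1.15 ± 0.49 (SE, adjusted p = 0.188). The levels of the groups did not overlap for 2 of 10 genes in keratinocytes, 2 of 9 in basal-like, 2 of 6 in differentiating-like and 3 of 9 in hair follicle-like cells, where 56.3%, 58.6%, 49.6% and 60.6% of all genes tested did not overlap. Shares of keratinocytes with a UMI at 5000 UMIs did not overlap for 3 of 10 (Ccl2 higher in TKO, Il34 and Ptgs2 lower, exact permutation p = 0.33 each) and for 51.1% of all genes. Without Ctrl 1, Ctrl 2, TKO 1 or TKO 2 the numbers were 10, 7, 6 and 3 of 10, against 71.7%, 73.6%, 76.8% and 79.6% of all genes. These medians depend on Ctrl 2, which was the highest library for Cxcl1, Cxcl2, Cxcl10, Csf1, Tnf, Ptgs2 and Icam1 in basal-like cells. With a library left out, the basal-like values of Ptgs2, Csf1, Cxcl1, Cxcl2, Cxcl10 and Icam1 reached 0.028, 0.77, 0.95, 0.41, 0.45 and 0.55. Those of Il34, Cxcl14 and Tnf stayed below 0. Without Ctrl 2 the log2 difference in keratinocytes was 1.18 for Cxcl1 and 0.44 for Cxcl10, neither past the test, and without Ctrl 1 it was -0.63 and -1.53.

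The genotype effect was also compared between classes. Relative to basal-like cells, 0 of the 9 genes tested passed in differentiating-like cells (Ccl2 was not tested), where 0.248% of all genes did, and 0 of 10 in hair follicle-like cells, where 1.61% did. At an unadjusted p of 0.05 the numbers were 1 of 9, against 14.2% of all genes, and 1 of 10, against 13.9%. The log2 effect on Cxcl2 was 2.61 ± 0.65 (SE) higher in differentiating-like than in basal-like cells (adjusted p = 0.162, edgeR, on 2, 2, 9 and 5 UMIs in differentiating-like cells, too few for the test within that class), and that on Tnf 0.83 ± 0.29 higher in hair follicle-like than in basal-like cells (adjusted p = 0.264).

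**Figure D3:**
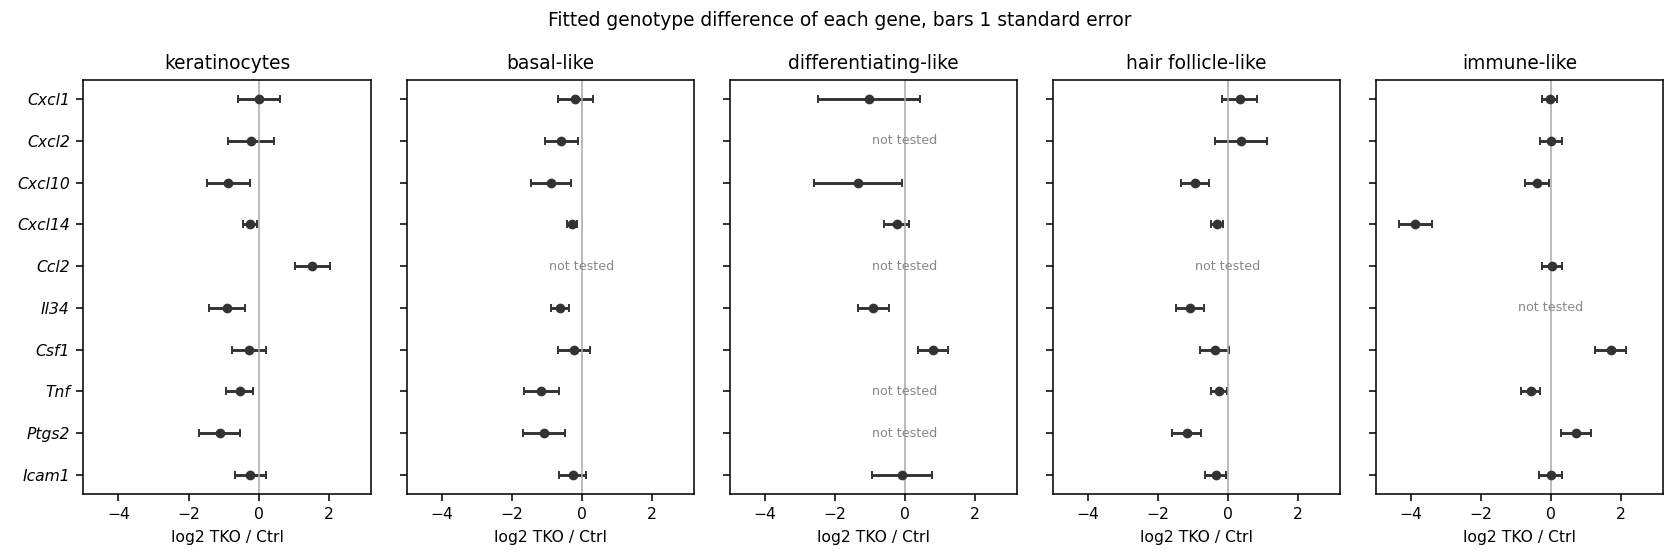
Log2 difference TKO minus Ctrl (x axis) with 1 standard error (bars) for each gene and class, from the edgeR fit on 2 libraries per group; genes with too few UMIs are marked not tested. The values of Il34 and Ptgs2 lay below 0 in each keratinocyte class where they were tested and that of Ccl2 above 0 in keratinocytes, and 0 of them passed the test after adjustment.

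Most transcripts of the inducible chemokines came from few keratinocytes. In the 4 libraries, 42, 107, 71 and 35 keratinocytes held 50% of the Cxcl1 UMIs. Cxcl1 and Cxcl2 were found in the same cells, as 46.2%, 49.5%, 44.4% and 69.2% of keratinocytes with a Cxcl2 UMI also held a Cxcl1 UMI at 5000 UMIs, against 3.95%, 11.2%, 11.1% and 5.57% of those without one. Many of these cells lay in 2 clusters led by early response genes, among them Fosl1, Klf2, Zfp36, Atf3 and Ier3, which are induced within minutes of a stimulus. The first leading gene of one of them was Cxcl10 itself, and Cxcl1 and Icam1 were also among its 10 leading genes, so the shares of these genes in the clusters are a description. A cluster was counted as such when at least 3 of its 10 leading genes were on an early response list, a threshold set after the clusters were seen. These clusters held 259, 644, 323 and 132 cells, that is 9.10%, 21.5%, 20.6% and 7.37% of keratinocytes, and so were large in 1 library of each genotype.

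The early response-led clusters held 57.5%, 65.8%, 51.7% and 57.7% of the keratinocyte UMIs of Cxcl1 and 56.5%, 57.4%, 38.2% and 66.0% of those of Cxcl2. For Cxcl10 the shares were 55.7%, 68.8%, 62.8% and 60.1%, and for Icam1 40.7%, 57.5%, 45.6% and 38.9%. For Il34 they were 0.676%, 5.50%, 7.14% and 1.10%, so that the differentiation-linked gene lay elsewhere. Cxcl14, Tnf and Csf1 were in between, with 11.6% to 25.01%, 13.8% to 30.04% and 25.9% to 38.4%. Within the clusters Cxcl1 was at 88.5, 148, 101 and 159 CPM, and in the other keratinocytes at 6.33, 21.5, 25.4 and 10.1 CPM. Cxcl10 was at 157, 316, 123 and 210 CPM inside and at 12.1, 40.2, 19.6 and 12.1 CPM outside. The summed level of the 14 early response and dissociation genes in keratinocytes was 2493, 6320.0, 3857 and 1657 CPM, with Ctrl 2 highest as for Cxcl10 and Icam1. The part of tissue dissociation, which induces such genes, in the differences between libraries was not tested.

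**Figure D4:**
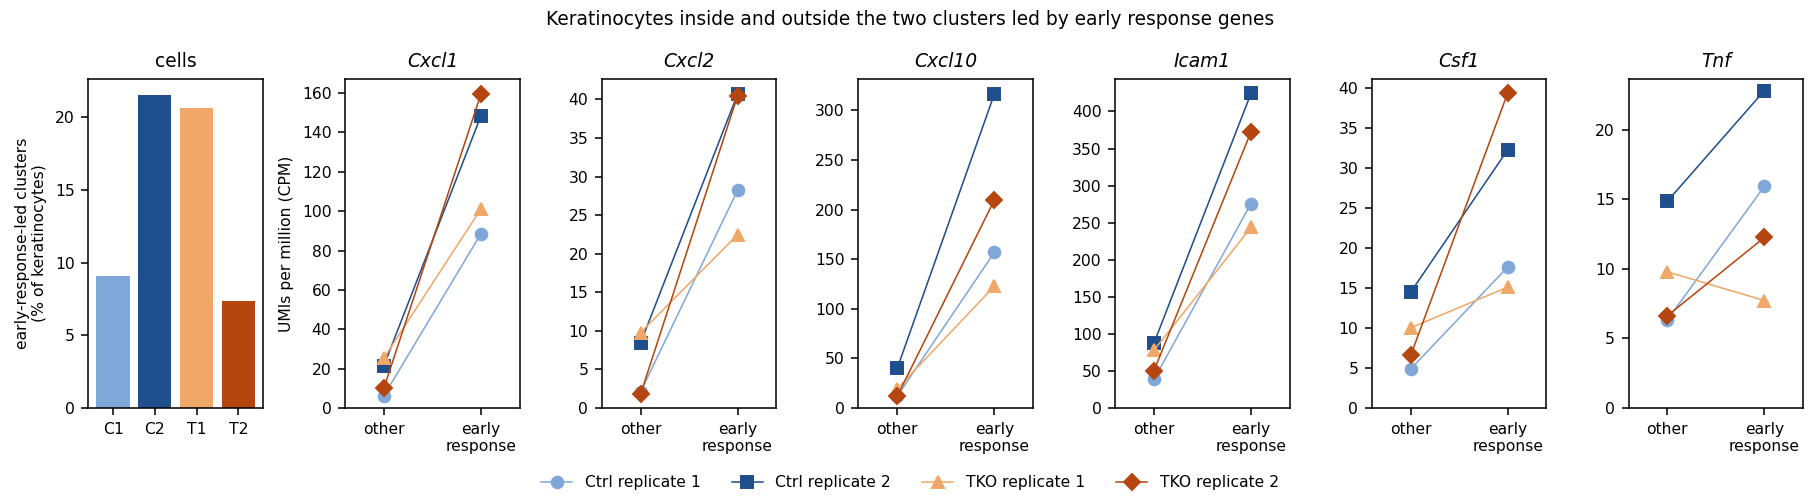
Left, early response-led clusters as a percent of keratinocytes in each library (bars, C1 and C2 Ctrl, T1 and T2 TKO); right, the level (CPM) of 6 genes in the other keratinocytes and in these clusters, 1 line per library. The clusters made up 7.37% to 21.5% of keratinocytes, and Cxcl1, Cxcl2, Cxcl10, Icam1 and Csf1 were higher inside them in all 4 libraries, whereas Tnf was higher inside in 3 of 4.

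Immune-like cells were a larger part of TKO libraries, at 2.10%, 2.999%, 11.7% and 11.96% of cells kept (64, 97, 245 and 285 cells), with counting intervals of 1.62 to 2.67%, 2.44 to 3.65%, 10.3 to 13.1% and 10.7 to 13.3%. The mean was 2.55% ± 0.638 in Ctrl and 11.8% ± 0.188 in TKO (SD, n = 2 each), a difference of 9.28 percentage points (4.64-fold, exact two-sided permutation p = 0.33, the smallest possible). The difference was larger than the spread within either group. Other cell types that the sort had let through also had higher shares in TKO, with fibroblast-like cells at 3.37%, 3.18%, 8.78% and 5.29% and melanocyte-like cells at 0.197%, 0.0928%, 1.38% and 0.797%, so more immune cells in the skin and a sort that let more non-keratinocytes through cannot be told apart here. Of the 691 immune-like cells, 652 formed a macrophage-like cluster led by Hmox1, Lyz2, Cd163, Pf4 and Mrc1, in which all 8 macrophage markers were found in at least 20% of cells and Cd3d, Cd3e, Cd3g, Cd7 and Cd207 were at 0. The other 39 cells were led by the mast cell genes Cma1, Cpa3, Tpsb2 and Hdc and by H2-Aa, and were mixed, with 6 of 8 mast cell, 5 of 8 dendritic or Langerhans, 3 of 8 macrophage and 2 of 8 T or innate lymphoid markers in at least 20% of cells. A further cluster with both macrophage and erythroid markers was kept apart (18, 28, 35 and 138 cells).

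TKO libraries held more immune-like cells and also more Ccl2 and Cxcl2 transcripts as a whole, and the part of the cell share in this was not tested. Over all cells kept, Ccl2 was at 5.51, 13.4, 37.6 and 51.3 CPM (398, 820, 2414 and 3441 UMIs) and Cxcl2 at 8.34, 24.9, 34.5 and 48.97 CPM. Within immune-like cells their levels overlapped between genotypes. Ccl2 was at 256, 482, 382 and 372 CPM there (log2 difference 0.02 ± 0.29 SE, adjusted p = 0.994, edgeR), and Cxcl2 at 215, 394, 254 and 357 CPM (-0.00 ± 0.31 SE, edgeR). For both genes the TKO values lay within the Ctrl range, so that the genotypes were apart in the share of these cells while the levels of both chemokines in them overlapped. In the separate cluster with macrophage and erythroid markers, however, both TKO values were above both Ctrl values, with Ccl2 at 104, 138, 321 and 277 CPM and Cxcl2 at 55.7, 65.9, 190.3 and 237 CPM. In TKO 1 a single cell held 131 of the 188 Cxcl2 UMIs of that cluster, and in TKO 2 the cluster held 30.6% of the Ccl2 and 27.5% of the Cxcl2 UMIs of all cells kept. The 2 genes were the highest of the 10 in immune-like cells, above Cxcl1 at 48.3 to 66.8 CPM, Cxcl10 at 25.5 to 53.1 CPM and Tnf at 24.4 to 50.3 CPM. Il34 was close to the floor there, with 0, 3, 7 and 6 UMIs, and at 5000 UMIs it was found in 0 of 64 and 0 of 96 cells in Ctrl and in 1 and 2 cells in TKO, where the counts of 0 allow shares of up to 4.69% and 3.13%.

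**Figure D5:**
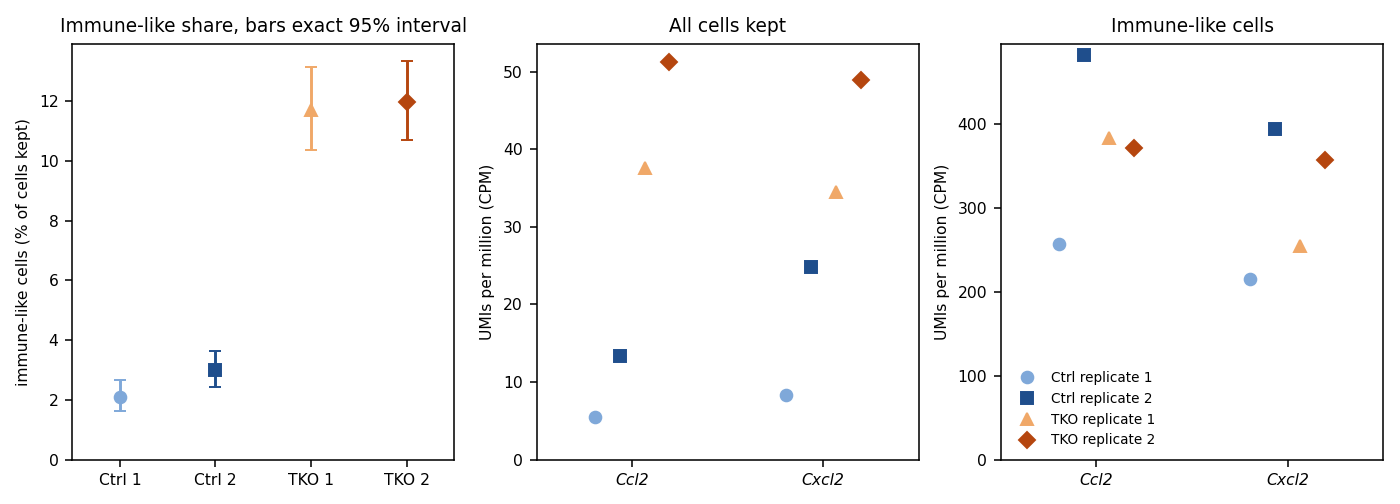
Percent of cells that were immune-like in each library (with exact 95% binomial intervals), and the level (CPM) of Ccl2 and Cxcl2 over all cells kept and within immune-like cells, 1 point per library. The share was 2.10% and 2.999% in Ctrl and 11.7% and 11.96% in TKO, and Ccl2 over all cells was at 5.51 and 13.4 CPM in Ctrl and 37.6 and 51.3 CPM in TKO, while its level within immune-like cells overlapped between genotypes.

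In immune-like cells, too, 0 of 9 genes were called by edgeR, where 0.0256% of 11739 genes were, with 2 of 9 under an unadjusted p of 0.05, against 6.45% of genes, and 1 of 9 called by DESeq2. The groups did not overlap for 4 of 9 genes there, against 36.5% of all genes tested. Cxcl14 was at 142, 58.6, 8.74 and 4.91 CPM (log2 -3.87 ± 0.48 SE, adjusted p = 0.20 by edgeR and 1.13e-13 by DESeq2). Of its 178, 85, 44 and 29 UMIs, a single cell held 87, 36, 8 and 2, and these top cells held 201, 178, 1 and 1 UMIs of the keratin Krt14. Krt14 moved the same way in immune-like cells, at 299, 292, 40.5 and 36.8 CPM, and there were 0.475, 0.2005, 0.216 and 0.134 Cxcl14 UMIs per Krt14 UMI, beside 0.189, 0.180, 0.189 and 0.102 in keratinocytes. Without the top cell of each library Cxcl14 stood at 76.1, 34.6, 7.20 and 4.59 CPM. Csf1 went the other way, at 3.19, 9.65, 23.0 and 19.99 CPM (4, 14, 116 and 118 UMIs, log2 1.70 ± 0.44 SE, adjusted p = 0.58, edgeR), and in TKO 2 that mixed cluster of 39 cells held 40 of the 118 UMIs in 5 of its 13 cells. Both genes were chosen for this account after their values were seen.

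Genes related to the 10 by pathway were taken from 6 lists, whose counts stand beside 7.01% of all genes called in keratinocytes, 11.1% in basal-like and 14.9% in hair follicle-like cells. At an unadjusted p of 0.05 by edgeR the shares of all genes there were 25.1%, 28.1% and 30.3%. In differentiating-like and immune-like cells they were 15.9% and 6.45%. The DESeq2 counts have no share over all genes beside them. Of 16 other chemokines, 8 were tested in keratinocytes and 0 were called (2 of 8 at an unadjusted p of 0.05 by edgeR, 0 by DESeq2), and 1 of 5 rose in hair follicle-like cells. That gene was Cxcl16, a membrane-bound chemokine that binds Cxcr6, at 3.79, 3.97, 8.77 and 8.22 CPM (log2 1.16 ± 0.21 SE, adjusted p = 0.0137). Of 22 cytokines and growth factors of epithelia, 13 were tested in keratinocytes and 1 fell, Tgfb2, at 84.5, 117, 32.3 and 44.4 CPM (log2 -1.40 ± 0.22 SE, adjusted p = 0.0278), with 7 of 13 at an unadjusted p of 0.05 by edgeR and 4 called by DESeq2. In hair follicle-like cells, with 9 tested, Tgfb2 fell too (-1.34), and the macrophage migration inhibitory factor Mif (0.91) and the lymphocyte growth factor Il15 rose (3.94, on 3, 1, 28 and 26 UMIs), beside 4 of 9 unadjusted and 3 by DESeq2. The summed level of the 8 immune markers in hair follicle-like cells was 1.29, 2.29, 7.44 and 9.42 CPM. The part of immune-cell RNA in the rises of Cxcl16 and Il15 was not tested. In basal-like cells Mif (0.92) and Kitl (0.65), the Kit ligand on which melanocytes and mast cells depend, rose among 10 tested (6 of 10 unadjusted, 4 by DESeq2).

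The prostaglandin and adhesion list, to which Ptgs2 and Icam1 are closest, had 2 of 12 tested genes higher and 0 lower in keratinocytes (6 of 12 at an unadjusted p of 0.05 by edgeR, against 25.1% of all genes, and 2 called by DESeq2). Ptges, the synthase of prostaglandin E2, was at 27.6, 27.7, 45.4 and 43.2 CPM (log2 0.66 ± 0.10 SE, adjusted p = 0.0221), the opposite direction from the uncalled value of Ptgs2. Vcam1, like Icam1 an integrin ligand, was at 0.103, 0.140, 1.14 and 0.517 CPM (7, 8, 60 and 28 UMIs, log2 2.74 ± 0.54 SE, adjusted p = 0.0447). The immune markers named beside Ccl2 were also higher in TKO keratinocytes, and Vcam1 was at 16.8, 45.5, 35.5 and 105 CPM in immune-like and at 191, 221, 316 and 229 CPM in fibroblast-like cells. In keratinocytes with no immune marker UMI its log2 difference was 2.69 ± 0.49 (SE, adjusted p = 0.0349, edgeR). That filter cannot take out free immune-cell RNA, as the markers held only 182, 152, 229 and 377 UMIs in all keratinocytes. The part of free immune-cell or fibroblast RNA was not tested. In hair follicle-like cells 2 of 8 rose, again Ptges (1.18) and Vcam1 (3.47, on 2, 3, 32 and 16 UMIs), with 6 of 8 unadjusted and 3 by DESeq2. In basal-like cells Ptges3 rose (0.41) and Hpgd, which breaks prostaglandins down, fell (-3.07, on 72, 87, 7 and 10 UMIs), with 5 of 9 unadjusted and 4 by DESeq2. The NF-κB pathway and its feedback targets gave 0 called of 19 in keratinocytes, basal-like and hair follicle-like cells and 0 of 18 in differentiating-like cells (1, 2, 4 and 1 at an unadjusted p of 0.05 by edgeR, and 0, 0, 1 and 0 called by DESeq2). Receptors and partners on immune cells gave 0 called of 9 in immune-like cells (1 of 9 unadjusted, 0 by DESeq2). Of the early response and dissociation list, 0 of 14 were called in keratinocytes (1 unadjusted, 0 by DESeq2), and 3 of 14 fell in hair follicle-like cells by edgeR (8 of 14 unadjusted, against 30.3% of all genes) and 0 were called by DESeq2. These were the immediate early transcription factors Atf3 (log2 -1.57), Fos (-1.72) and Egr1 (-1.35). Ctrl 2 was their highest library, with Atf3 at 325, 706, 208 and 129.9 CPM, Fos at 414, 1268, 289 and 208 CPM and Egr1 at 384, 797, 287 and 167 CPM, and both TKO values lay below both Ctrl values. Without Ctrl 2 the log2 differences were -0.93 (adjusted p = 0.0183), -0.72 (adjusted p = 0.0271) and -0.75 (adjusted p = 0.0756), so that Egr1 no longer passed, and without TKO 2 Fos (-1.51, adjusted p = 0.065) and Egr1 (-1.01, adjusted p = 0.0649) did not pass. The calls in keratinocytes also depended on which libraries were in the fit. Tgfb2, Ptges and Vcam1 did not pass without Ctrl 1 or without Ctrl 2. Tgfb2 and Ptges did pass without TKO 1 and without TKO 2, and Vcam1 only without TKO 2. The log2 differences of Tgfb2, Ptges and Vcam1 kept their sign, at -1.67 to -1.17, 0.65 to 0.69 and 2.10 to 3.202 with a library left out. In basal-like cells Mif, Kitl, Ptges3 and Hpgd likewise did not pass without Ctrl 1 or without Ctrl 2 (adjusted p = 0.0622 to 0.275, edgeR), and Ptges3 did not without TKO 1 (0.0645) or TKO 2 (0.0634). Tgfb2, Mif, Il15, Ptges and Cxcl16 passed in hair follicle-like cells whichever library was left out, and Vcam1 did not without TKO 1 (2.83, adjusted p = 0.0563).

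Over the 16 sums of 4 classes by 4 libraries, some genes had a pattern close to that of one of the 10. The nearest to Ccl2 was the leukocyte gene Plek (Pearson r = 0.9992 on log2 CPM), the nearest to Cxcl14 was Cdh3, P-cadherin (r = 0.99), the nearest to Cxcl1 was Ap2b1 (r = 0.97) and the nearest to Il34 was Rab10. The nearest to Cxcl10 was Flvcr1 (r = 0.97) and the nearest to Tnf was Fam13a (r = 0.98), with the NF-κB inhibitors Nfkbia (r = 0.96) and Tnfaip3 (r = 0.98) second. The sums share libraries and depth, and 9567 genes were compared.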

How the data were processed

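The deposited files hold raw UMI counts per gene and barcode, which the authors made with Cell Ranger (version 7.1.0 in the file headers) on GRCm39. Barcodes below 2000 detected genes or with 10% or more mitochondrial UMIs were dropped, and the highest doublet scores of each library (0.8% per 1000 barcodes) were left out. Cells were clustered in scanpy 1.11.5 with leidenalg 0.10.2 (2000 variable genes without the 10 described, 30 components, library correction, resolution 1) and classes were named from marker lists. For the split of keratinocytes, genes called between genotypes in a first edgeR fit were also left out. UMIs were summed per library and class and tested with edgeR 4.0.16 (TMM, quasi-likelihood, Benjamini-Hochberg over all genes tested, R 4.3.3). DESeq2 1.42.0, the replicate block, no filter, other clusterings and leaving out each library were the alternatives. CPM are UMIs scaled to a class total of 1e6. The tests were tried on simulated data in which every gene had the same low dispersion and only genes with many UMIs were changed. Of genes changed by 2 on the log2 scale 98.0% were recovered in keratinocytes and 98.0% in immune-like cells, and of those changed by 1, 74.0% and 60.0%. Genes such as Cxcl10 varied more between libraries (SE 0.61 in keratinocytes), so these rates do not carry over to them. The genes and lists were chosen with earlier results of these data known. All 10 were named, with the called genes of each list and the nearest genes by Pearson r. Positions are from GENCODE M39. The study tested single cells, and its test was not used because cells of 1 embryo are not replicates.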

Additional observations from a re-analysis of the deposited data

How the results depend on the processing

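Of the 725 log2 differences of the 10 genes under all alternatives, 78 had the opposite sign of the value reported, 35 of them with a move of more than 1 SE of that value, and 0 of the 78 passed the test, while 25 passed it in the reported direction. Il34 kept a negative sign in each keratinocyte class tested under all alternatives run. Numbers of genes called among the 10 moved from 0 as follows. Without a filter on low counts 5 were called in basal-like cells (Ptgs2, Cxcl2, Cxcl10, Cxcl14 and Tnf), 1 in differentiating-like cells (Il34) and 2 in immune-like cells (Csf1 and Cxcl14). Thinning to 5000 UMIs gave 1 in basal-like cells (Tnf), and DESeq2 gave 1 in immune-like cells. The replicate block gave 1 in immune-like cells (Cxcl14) and 0 elsewhere. The replicate numbers do not pair the embryos (r of same-numbered deviations -0.43 to -0.04), and the crossed replicate block, added after seeing the data, gave 1 in keratinocytes (Il34), 1 in hair follicle-like cells (Cxcl10) and 1 in immune-like cells (Cxcl14). Leaving out 1 library gave 0 to 1 in keratinocytes, basal-like, differentiating-like and immune-like cells, 0 to 4 in hair follicle-like cells and 0 to 2 for the difference between classes. Those calls were Il34 without TKO 2, Cxcl10 in basal-like cells without Ctrl 1, and in hair follicle-like cells Ptgs2, Csf1, Cxcl10 and Icam1 without Ctrl 1 and Cxcl14 without TKO 1. Without TKO 2 the effects on Cxcl1 (0.77) and Cxcl2 (1.54) differed between hair follicle-like and basal-like cells. Cxcl14 in immune-like cells was called without Ctrl 2, TKO 1 or TKO 2. Among all genes tested, those called ranged from 2 (without Ctrl 1) to 3623 (crossed block) in keratinocytes, from 224 (without Ctrl 2) to 3957 (no filter) in basal-like, from 25 (replicate block) to 1731 (no filter) in differentiating-like, from 568 (uncorrected components) to 2890 (without TKO 2) in hair follicle-like and from 1 (doublets kept) to 457 (no filter) in immune-like cells. Groups not overlapping in thinned shares were 1 of 10 unthinned, against 71.7% of all genes, and 3 to 10 with a library left out, against 71.7% to 79.6%. The difference in immune-like share was 8.45 points with doublets kept, 12.3 at Leiden resolution 0.5 or with the macrophage and erythroid cluster counted in, 10.96 of keratinocytes plus immune-like cells and 7.51 by markers over all barcodes. The sign turned, with a move of more than 1 SE, for Cxcl10 in differentiating-like cells with doublets kept (0.30), uncorrected components (0.47) and resolutions 0.5 (0.43) and 2 (0.23), for Csf1 (0.043) and Tnf (0.084) in hair follicle-like cells with uncorrected components, and for Cxcl10 in immune-like cells (0.20 at resolution 0.5 and with that cluster counted in). With a library left out, the ranges that crossed 0 with a move of more than 1 SE were, in keratinocytes, -0.85 to 0.72 for Csf1, -0.63 to 1.18 for Cxcl1, -0.99 to 0.93 for Cxcl2, -1.53 to 0.44 for Cxcl10, -0.76 to 0.62 for Icam1, -0.53 to 0.021 for Cxcl14 and -1.01 to 0.15 for Tnf. In basal-like cells they were -1.70 to 0.028 for Ptgs2, -0.81 to 0.77 for Csf1, -0.81 to 0.95 for Cxcl1, -1.17 to 0.41 for Cxcl2, -1.56 to 0.45 for Cxcl10 and -0.77 to 0.55 for Icam1. In differentiating-like cells they were -2.12 to 3.596 for Cxcl1, -2.35 to 1.95 for Cxcl10, -0.94 to 1.83 for Icam1 and -0.88 to 0.20 for Cxcl14. In hair follicle-like cells they were -0.89 to 0.41 for Csf1, -0.43 to 1.19 for Cxcl1, -1.23 to 1.49 for Cxcl2, -0.77 to 0.24 for Icam1 and -0.55 to 0.092 for Tnf, and in immune-like cells -0.38 to 0.52 for Cxcl2, -0.84 to 0.24 for Cxcl10, -0.41 to 0.34 for Icam1 and -0.37 to 0.57 for Ccl2. Turns of smaller size were most frequent for Cxcl2 in immune-like cells (opposite sign in 11 of 17 alternatives) and Icam1 in differentiating-like cells (8 of 17), both near 0. The cause of these moves was not tested. Ccl2 in keratinocytes, Cxcl2 in differentiating-like cells, Ptgs2 and Il34 in hair follicle-like cells rest on few UMIs, and 2 libraries per group limit each test.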

Other observations

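Il34 was also found in barcodes that the filters left out, and unevenly so. Its UMIs over all barcodes were 2212, 897, 255 and 883 in Ctrl 1, Ctrl 2, TKO 1 and TKO 2, of which cells kept held 1045, 594, 215 and 586. Barcodes with at least 10% mitochondrial UMIs numbered 970, 212, 101 and 225 and held 797, 68, 9 and 97 Il34 UMIs, at 116, 53.3, 11.5 and 57.0 CPM. In Ctrl 1 they held 36.0% of all Il34 UMIs, so the level of this gene in the library depended on which barcodes were kept. Over all barcodes the level was 24.7, 12.4, 3.604 and 11.5 CPM, and the order of the libraries was the same as in the keratinocytes kept.

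The few melanocyte-like cells held 0, 0, 87 and 135 Ccl2 UMIs, and in TKO 2 all 135 were in 1 cell.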
